A study of Mus musculus with 8 samples.

Results

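The tetraspanin family was examined in lymphatic endothelium that had been sorted from the ear skin of mice. Its members were taken by gene symbol, as every probe set on the array that names exactly 1 gene called Tspan with a number, Cd9, Cd37, Cd53, Cd63, Cd81, Cd82, Cd151, Upk1a or Upk1b. This gave 61 probe sets for 27 genes, out of 34945 probe sets for 18193 genes, and Cd63 was not analysed here. The family was selected on the measured signals of Cd53, which were higher in inflamed samples, so its values are given as a description without a test. The other genes entered by name alone.

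These cells form the wall of the lymphatic vessels, through which tissue fluid and leukocytes leave the skin. All samples came from female FVB mice aged 8 to 10 weeks, and the sort kept cells positive for CD31 and for podoplanin and negative for CD45, a protein of leukocytes. Inflamed skin was made by contact hypersensitivity to the allergen oxazolone, painted at 2% on the belly and paws and, after 5 days, at 1% on the ears (10 µl per side). Ears were collected 24 hours after this challenge. The untreated group came from mice described as healthy, and a group given the solvent alone was not analysed here. Each group had 4 samples of 3 pooled mice, and each untreated sample forms a pair with the inflamed sample of the same number. The pairs had been picked for the quality of their RNA and amplified material. The comparison asks which tetraspanin transcripts are higher or lower in this endothelium during contact inflammation.

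Tetraspanins are small membrane proteins that cross the membrane several times and carry a large outer loop held together by disulphide bonds. They gather integrins, immunoglobulin-family receptors, proteases and signalling enzymes into patches of the cell surface known as the tetraspanin web, and some are abundant on secreted vesicles. In endothelium they are known for their part in adhesion to the matrix, in the docking of leukocytes and in receptor shedding. Some members are found on nearly all cells, while others, such as Cd53 and Cd37, are known from leukocytes.

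Levels are given as log2 of the array signal, 1 array per sample and in the order of pairs 1 to 4. A level is read against the background ceiling of its array, the 95th percentile of 27 probe sets for bacterial genes, which lay between 2.53 and 3.31. Levels of different probe sets are not comparable with each other. Array means of the signal ran from 126.2 to 160.4. The share of probe sets over the ceiling ran from 53.5% to 62.6%. Checked against the label, all 8 lymphatic endothelial markers on the array were above the ceiling on all 8 arrays. The Gapdh 3′ to 5′ log2 ratio, a sign of RNA quality, was 3.40 to 4.16 on untreated and 2.58 to 3.30 on inflamed arrays. For Actb the same ratio was -0.15 to -0.0008 on untreated and -0.12 to -0.01 on inflamed arrays, with overlapping ranges. The part of RNA quality in the results was not tested. In these bulk samples, fewer cells of a type and less RNA per cell cannot be told apart.

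Beside Cd53, 1 tetraspanin gene rose and 1 fell in inflamed samples. Tspan4, known as a marker of migrasomes, the vesicles that migrating cells leave on their retraction fibres, rose 3.49-fold. Tspan18, known from endothelium as a partner of the calcium channel Orai1, fell to 15.9% of its untreated signal. The broadly expressed Cd9, Cd81, Cd82 and Cd151 differed by at most 0.84 on the log2 scale in their brightest probe sets, and none of these passed.

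Of the 27 genes, 22 passed the filter on dim probe sets, Cd53 among them, and 21 were tested. In limma, 2 of the 21 had an adjusted p under 0.05, a share of 9.52%, against 6.94% of all 10843 genes tested (3.91% higher and 3.02% lower). At an unadjusted p under 0.05 there were 7 of the 21, against 22% of all genes. The median difference of the 21 was -0.27, against -0.09 over all genes. Median centring of the arrays moved the median of all genes to 0.22 and that of the 21 to 0.04. A difference below 0 was found for 16 of the 21, or 10 under median centring and 14 under quantile or cyclic loess normalization. The level was lower in all 4 pairs for 6 of 21 (28.6%), Cd81, Cd82, Tspan2, Tspan5, Tspan12 and Tspan18, against 15.5% of all genes, and higher in all 4 pairs for 2, Tspan4 and Tspan11, against 13.6%. The groups did not overlap for 4 of 21 genes, Tspan4 above and Tspan2, Tspan12 and Tspan18 below, against 13.1% of all genes (6.3% above and 6.84% below).

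**Figure D1:**
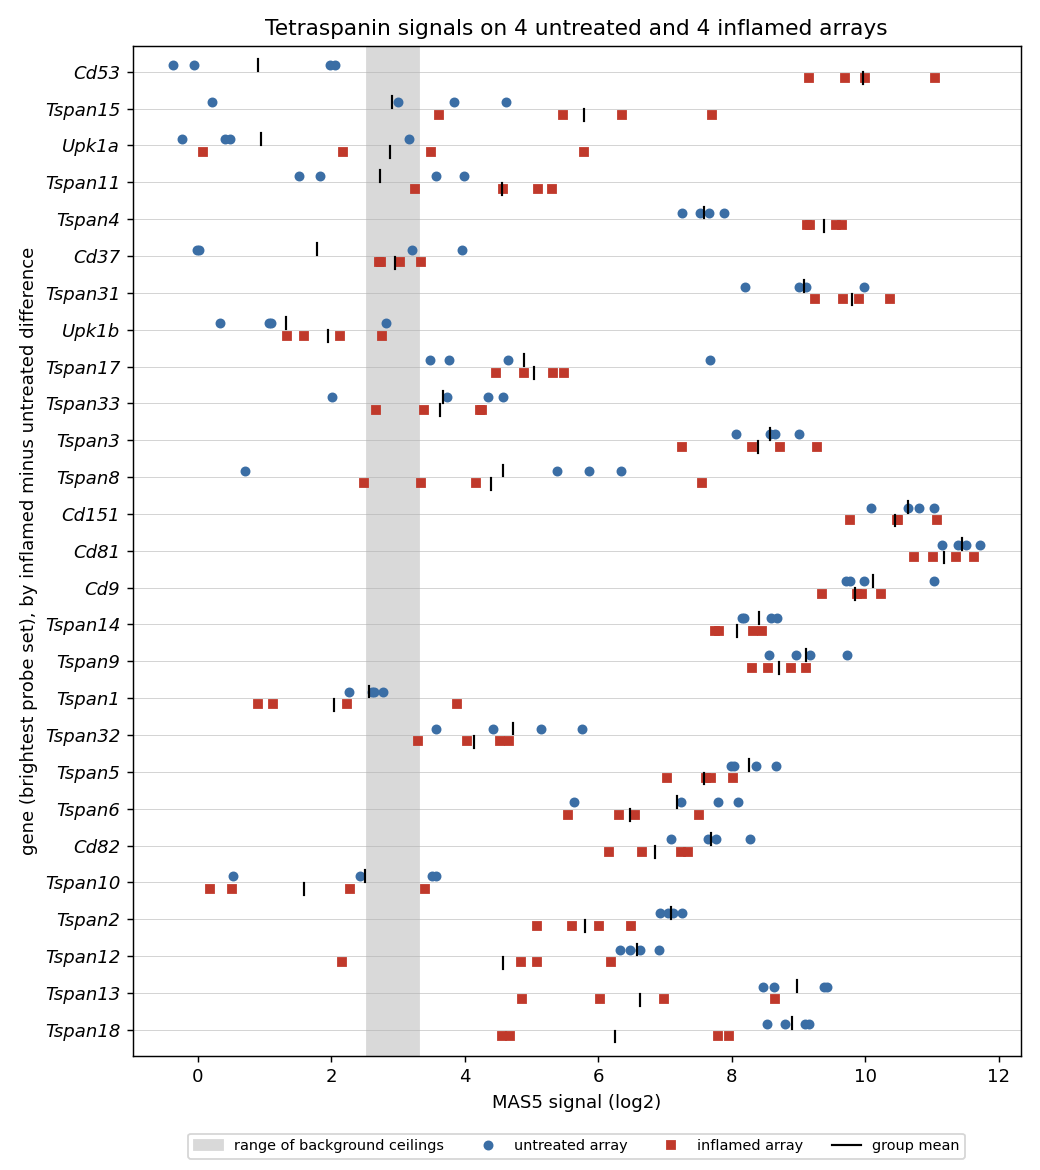
Log2 MAS5 signal (x axis) of the brightest probe set of each of the 27 tetraspanin genes (y axis), ordered by the inflamed minus untreated difference. Circles are the 4 untreated arrays, squares the 4 inflamed arrays, black ticks the group means, and the grey band spans the background ceilings from 2.53 to 3.31. The inflamed arrays of Cd53 and Tspan4 lie apart to the right of the untreated ones, and those of Tspan2, Tspan12 and Tspan18 apart to the left.

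Tspan4 read 7.25, 7.52, 7.88 and 7.66 on the untreated arrays and 9.17, 9.57, 9.65 and 9.13 on the inflamed arrays. All 4 inflamed arrays were higher than every untreated array, and the spread within each group was narrow. Its mean went from 7.58 ± 0.26 to 9.38 ± 0.27 (SD, n = 4), a difference of 1.80 ± 0.33 (SE) with a 95% interval of 1.07 to 2.54 (limma adjusted p = 0.0118). The difference was between 1.47 and 2.05 in the single pairs. The adjusted p was 0.0510 without pair 1, 0.0527 without pair 2, 0.0629 without pair 3 and 0.0836 without the intensity trend of the fit, so the call ended in these 4 cases while the size stayed between 1.72 and 1.91 without any 1 pair. Tspan4 has 1 probe set, so no other probe set bears on this value. Of 8 fibroblast markers, 1 rose, Lum, by 1.49 ± 0.29 (SE; limma adjusted p = 0.0167), and their mean level was 7.30 to 9.66 on untreated and 8.52 to 10.20 on inflamed arrays, higher in all 4 pairs. Their summed signal was 4383 to 18349 and 9939 to 22262, and their part in the value of Tspan4 was not tested.

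Cd53, the other gene that stood higher, is a tetraspanin of the leukocyte surface that is known to associate with integrins and other receptors there. It read -0.37, 1.97, -0.06 and 2.06 on the untreated arrays, all under their ceilings, and 9.99, 9.15, 9.70 and 11.04 on the inflamed arrays. As the untreated values are under background, only a bound holds, and the inflamed mean was at least 128.7-fold above the untreated ceilings. Its second probe set was at or under the ceiling on all 8 arrays, so the difference rests on 1 of the 2 probe sets of the gene.

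The start sites of these 2 genes differ in base composition, and their upstream sequences are shown for that reason, from RefSeq on build GRCm38.p6. The Cd53 stretch is the 250 bases before the start, at chr3:106790150-106790399 on the minus strand. The Tspan4 stretch is the 82 bases between the end of its neighbour Polr2l and its first annotated start, at chr7:141475154-141475235 on the plus strand. Each ends at the base before an annotated transcript start. Both are written 5′ to 3′ in the direction of the gene, with capitals for the motifs found.
Cd53: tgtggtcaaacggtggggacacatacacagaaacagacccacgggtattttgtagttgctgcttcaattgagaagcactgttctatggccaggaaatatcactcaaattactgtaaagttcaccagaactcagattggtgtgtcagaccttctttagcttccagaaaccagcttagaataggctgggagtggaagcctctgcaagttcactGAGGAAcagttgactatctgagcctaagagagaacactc
Tspan4: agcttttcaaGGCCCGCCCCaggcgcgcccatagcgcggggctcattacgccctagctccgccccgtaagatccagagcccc
The Cd53 stretch has 45.2% G and C and 2 CpG sites in 250 bases, and the Tspan4 stretch has 68.3% and 8 in 82 bases. The 250 bases before another annotated start of Tspan4, not shown, have 63.2% and 8 CpG sites. Over all 32851 windows of 250 bases in the table, the medians were 52.4% and 6 CpG sites. Both strands were searched for GAGGAA, a core read by the ETS-family factor PU.1 among others, TTCNNNGAA, the STAT motif, the core of the interferon-stimulated response element, TGANTCA, the AP-1 motif, and a loose form of the NF-kB motif, GGG and CC with any 5 bases between. The Cd53 stretch holds GAGGAA once, 39 to 34 bases before the start, a motif found in 23.3% of all windows, and none of the other motifs. The Tspan4 stretch holds the loose NF-kB motif once, on the opposite strand 72 to 63 bases before the start. This motif is in 45.8% of all windows, which have 250 bases each against 82 in this stretch. The other 3 motifs are in 7.02%, 2.98% and 6.75% of windows, in the order given. Of the 27 genes, 25 matched the table. Tspan18 and Upk1b are missing entries.

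Several markers of leukocytes were higher in inflamed samples beside Cd53. Ptprc, which encodes CD45, was under the ceiling on all 4 untreated arrays and read 4.82, 1.66, 3.05 and 5.14 on the inflamed arrays, above it on 3 of 4. In pair 3 it was only just above the ceiling of 2.98. Pair 4 had the highest inflamed array for Ptprc, for Cd53 and for the mean of the pan-leukocyte list. The lowest was that of pair 2 for Ptprc and Cd53 and that of pair 1 for the list mean. With 4 inflamed arrays, this order is a description and was not tested. Of 10 pan-leukocyte markers on the array, 7 were tested and 1 rose, Lcp1 (limma adjusted p = 0.00666), above the ceiling on 1 untreated and 4 inflamed arrays. With an untreated mean of 1.54, under the filter on dim probe sets, Lcp1 passed that filter only through its inflamed arrays. Whether it was tested thus depended on its inflamed level. The list mean lay between 2.90 and 5.17 on untreated and between 4.61 and 6.80 on inflamed arrays, higher in 3 of 4 pairs. The summed signal of the list ranged from 1220 to 2479 and from 1585 to 5551. The brightest in this sum on untreated arrays were Arhgdib, at 9.91 to 10.62, and Laptm5, at 6.89 to 9.28. Besides Lcp1, the tested markers of this list were Arhgdib, Itgb2, Laptm5, Rac2, Cytip and Coro1a. Other than Lcp1, they differed by -0.23 (Arhgdib) to 2.77 (Coro1a) and did not pass.

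Of 11 neutrophil markers, 4 were tested and 3 rose. The untreated means of these 4 lay between 0.85 (Il1b) and 2.27 (S100a9), under the filter of 3.30. They passed it only through their inflamed arrays, so the count of 3 of 4 was largely fixed by the filter. S100a8 and S100a9 (limma adjusted p = 0.00151 and 0.00121) were each above the ceiling on 1 untreated and 4 inflamed arrays, and Il1b was at least 24.96-fold higher (limma adjusted p = 0.00163), under the ceiling on all untreated arrays. The neutrophil mean was 1.59 in untreated and 4.60 in inflamed samples. Of the granule markers, Ltf and Ngp were under the ceiling on all inflamed arrays, while Camp and Mmp9 were each above it on 3 of 4, against 1 and 3 of 4 untreated arrays. The summed signal of this list ranged from 33.3 to 65.4 on untreated and from 1112 to 2109 on inflamed arrays. Of 12 monocyte and macrophage markers, 7 were tested and 0 passed in limma, with 2 at an unadjusted p under 0.05. These were Lyz2, at 1.94, and Fcgr1, at 3.78, the latter with an untreated mean of 1.515, under the filter. The mean of the 12 markers was 3.32 in untreated and 4.54 in inflamed samples, higher in 3 of 4 pairs. Their summed signal ranged from 490.1 to 1150 and from 745.3 to 1978. Of 10 dendritic cell markers, 4 were tested and 1 rose, Cd74 (limma adjusted p = 0.0287), above the ceiling on 2 untreated and 4 inflamed arrays. Their mean level lay between 2.54 and 3.74 on untreated and between 3.60 and 4.65 on inflamed arrays, higher in all 4 pairs. Their summed signal ranged from 198.4 to 446.1 and from 612.8 to 1696, and Cd209a was under the ceiling on all 8 arrays. Cd74 differed by 4.27, H2-Aa by 3.01, H2-Ab1 by 1.80 and Zbtb46 by -0.11, and only Cd74 passed. Of those too dim to be tested, Cd207, Cd209a and Flt3 differed by -0.51, -0.05 and -0.34. Ccr7, Itgax and Xcr1 differed by 0.76, 0.20 and 0.69 and were also not tested. Of 8 T and NK cell markers on the array, 2 were tested and 0 passed in limma, Cd8a at 0.44 and Thy1 at -0.65. Thy1 was the only 1 of the 8 above the ceiling on all 4 untreated arrays, at 11.06 to 11.36 there. Which cells its signal came from was not tested. None of the 6 B cell markers passed the filter on dim probe sets. The sort was set to leave out cells with CD45, and the part of these markers in the values of Cd53 was not tested.

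None of the other tetraspanins known mainly from blood cells passed the test. Cd37, best known from B cells, read -0.01, 3.21, 3.96 and 0.01 on the untreated and 2.74, 2.71, 3.03 and 3.35 on the inflamed arrays, above the ceiling on 2 of 4 in each group. It did not pass the filter and was not tested. Tspan32, a tetraspanin of haematopoietic cells, was 4.72 ± 0.94 in untreated and 4.13 ± 0.62 in inflamed samples (SD, n = 4; limma adjusted p = 0.709), with a 95% interval of the difference of -2.28 to 1.11. Tspan33 was 3.67 ± 1.16 and 3.63 ± 0.76 (limma adjusted p = 0.989), with a 95% interval of the difference of -1.99 to 1.92 and a sign that turned under all 3 other scalings. These wide intervals leave room for changes of several fold.

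Tspan18, the gene that fell, read 8.80, 9.16, 9.10 and 8.52 on the untreated arrays and 4.56, 7.95, 7.79 and 4.68 on the inflamed arrays. Every inflamed array was below every untreated array, with those of pairs 1 and 4 far below those of pairs 2 and 3. Its mean went from 8.90 ± 0.29 to 6.25 ± 1.88 (SD, n = 4), a difference of -2.65 ± 0.61 (SE) with a 95% interval of -4.03 to -1.27 (limma adjusted p = 0.0328). Its call ended without the pair as a block (adjusted p = 0.0606), without the intensity trend (0.136) and without any 1 of pairs 1 to 4 (0.125, 0.0521, 0.0631 and 0.0874). Both of its other probe sets pointed the same way. One, above the ceiling on all 8 arrays but only just on the inflamed array of pair 1, differed by -2.29 ± 0.63 (SE; adjusted p = 0.0666 with all probe sets tested separately), and the other was above the ceiling on 3 untreated arrays and on no inflamed array, at least 3.23-fold lower.

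Tspan13 lay just beyond the threshold at an adjusted p of 0.0504 in limma. It read 8.47, 8.63, 9.42 and 9.39 on the untreated and 4.85, 8.64, 6.98 and 6.02 on the inflamed arrays. The inflamed array of pair 2 was level with its untreated partner and the others were lower. The difference was -2.35 ± 0.61 (SE), or -3.14 without pair 2 (adjusted p = 0.0194). Its second probe set read lower in inflamed samples in all 4 pairs, by -1.90 ± 0.44 (SE), and passed with all probe sets tested separately (adjusted p = 0.0352), as did the first one there (0.0488).

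Tspan12, a part of the norrin receptor complex that helps Fzd4 signal in retinal vessels, read 6.63, 6.48, 6.91 and 6.32 on the untreated and 2.16, 6.19, 4.85 and 5.09 on the inflamed arrays. The groups did not overlap, and the inflamed array of pair 1 was under its ceiling of 2.96. The difference of -2.01 ± 0.78 (SE) did not pass (limma adjusted p = 0.170) and was -1.19 without pair 1. Of the 3 tested partners in that complex, 0 passed in limma and 1 had an unadjusted p under 0.05, the co-receptor Lrp6, at -1.03 ± 0.34 (SE; adjusted p = 0.112). The frizzled receptor Fzd4 differed by -0.48 ± 0.48 and the related co-receptor Lrp5 by -0.80 ± 0.47. The ligand gene Ndp was dim, above the ceiling on 3 untreated arrays and on no inflamed array, and was not tested.

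In the brightest probe sets, the lowest inflamed values of Tspan18 and Tspan13 were those of pairs 1 and 4, and that of Tspan12 was in pair 1. The second probe set of Tspan13 read 6.82, 6.02, 6.57 and 7.59 on the inflamed arrays, so it was lowest in pair 2 and highest in pair 4. Pecam1, which encodes the sort marker CD31, read 9.05, 10.36, 10.65 and 9.04 on the inflamed arrays against 10.36, 10.59, 10.55 and 10.50 on the untreated ones, so that pairs 1 and 4 were low there too. In pair 3, Tspan12, Tspan13 and Tspan18 were below their untreated partners while Pecam1 was not. Prox1, the lymphatic master regulator, read 7.79, 10.14, 11.05 and 9.95 against 11.00, 11.26, 11.38 and 11.03. Over all genes tested, 3.02% were lower and 3.91% higher. Of 8 lymphatic endothelial markers tested, 4 fell and 0 rose. Sox18 fell by 2.19 and Nrp2 by 1.71 on the log2 scale, and the others were Mmrn1 and Reln. Of 8 pan-endothelial markers tested, 3 fell, Kdr, Tek and Tie1. Of 6 blood endothelial markers tested, 2 fell and 0 rose. These were Aqp1, at -1.63, and Gpihbp1, at -2.76 (limma adjusted p = 0.00593 and 0.0305). Pdpn differed by 0.56 ± 0.15 and Lyve1 by -0.18 ± 0.13 (SE), and neither passed (limma adjusted p = 0.0605 and 0.467). The mean of the 8 lymphatic markers was 11.61 in untreated and 10.68 in inflamed samples, lower in all 4 pairs, and their summed signal ran from 23192 to 30437 and from 12371 to 21364. Tspan4 went the other way on the same arrays.

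Keratinocyte markers were lower in inflamed samples as well. Of 7 tested, 3 fell, Krt2, Krt5 and Krt10, against 3.02% of all genes tested. The mean of the 10 on the array was 6.03, 5.22, 6.82 and 5.80 on the untreated and 3.05, 4.13, 3.08 and 2.81 on the inflamed arrays. The smallest gap was in pair 2, as for the brightest probe sets of Tspan12, Tspan13 and Tspan18. For the second probe set of Tspan13 the gap was largest in pair 2, at -2.86. The summed signal of the keratinocyte markers ran from 1013 to 4914 on untreated and from 195.9 to 1382 on inflamed arrays. Whether the endothelial or the keratinocyte shift plays a part in the low values of these tetraspanins was not tested.

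**Figure D2:**
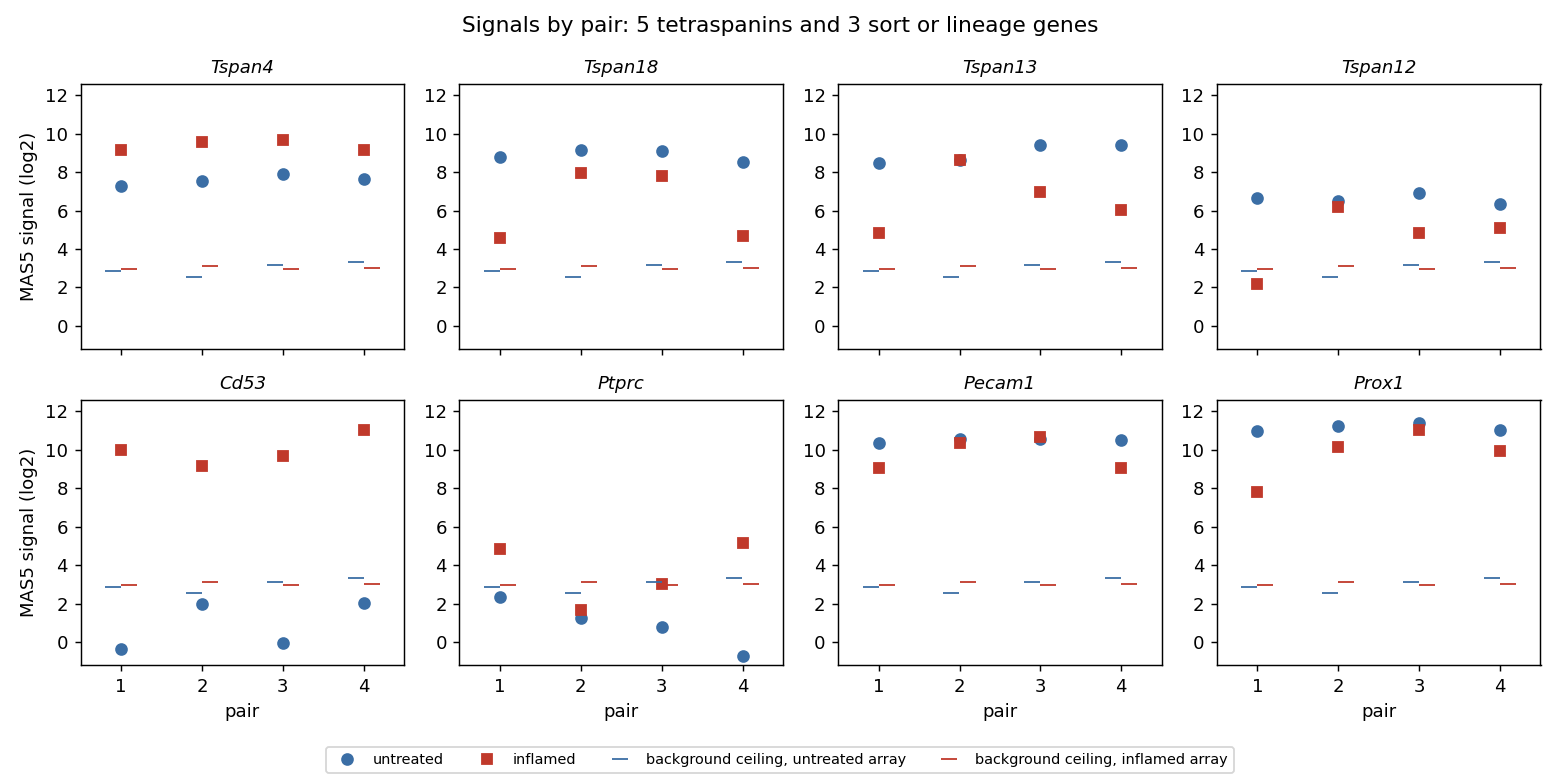
Log2 MAS5 signal (y axis) by pair (x axis, 1 to 4) for 5 tetraspanin genes and for Ptprc, Pecam1 and Prox1. Circles are untreated and squares inflamed arrays, and short dashes mark the background ceiling of each array. The inflamed squares of Tspan18 are at 4.56 and 4.68 in pairs 1 and 4, where Pecam1 is at 9.05 and 9.04, while those of Tspan4 stay between 9.13 and 9.65.

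Tspan2, known from oligodendrocytes, read 7.12, 7.25, 6.93 and 7.05 on the untreated and 6.50, 5.09, 5.61 and 6.01 on the inflamed arrays. All inflamed arrays were below all untreated ones, yet the difference of -1.29 ± 0.55 (SE) did not pass (limma adjusted p = 0.207). The other 2 probe sets of Tspan2 differed by -1.74 ± 0.83 and by -2.63 ± 0.64 (SE), and the latter passed with all probe sets tested separately (adjusted p = 0.0430).

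The members found on most cell types were bright in both groups. Cd81, a common marker of secreted vesicles, read 11.72, 11.39, 11.16 and 11.51 on the untreated and 11.63, 10.73, 11.01 and 11.35 on the inflamed arrays. The ranges overlapped, although each inflamed array was below its partner, and the difference was -0.26 ± 0.15 (SE; limma adjusted p = 0.354; 95% interval -0.60 to 0.08). Cd9, known for its need in the fusion of egg and sperm, was 10.12 ± 0.61 and 9.85 ± 0.37 (SD, n = 4; limma adjusted p = 0.615; interval of the difference -0.86 to 0.33).

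Cd151, which binds the laminin receptors among the integrins, was 10.64 ± 0.40 in untreated and 10.45 ± 0.53 in inflamed samples (SD, n = 4; limma adjusted p = 0.657; interval -0.66 to 0.28). For Cd81, Cd9 and Cd151 the sign of the difference turned under median centring. Cd82, known as a suppressor of metastasis, read 7.64, 7.09, 7.77 and 8.28 on the untreated and 6.65, 6.16, 7.34 and 7.24 on the inflamed arrays. It was lower in all 4 pairs, and the difference of -0.84 ± 0.44 (SE) did not pass (limma adjusted p = 0.305; interval -1.83 to 0.14).

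A subgroup called TspanC8 after the cysteines of the outer loop escorts the protease ADAM10, which sheds receptors such as Notch, to the cell surface. Of its 6 members, Tspan5, Tspan14, Tspan15, Tspan17 and Tspan33 were tested, and 0 passed in limma, with 1 at an unadjusted p under 0.05. That one was Tspan15, at 2.99, 0.21, 4.62 and 3.84 on the untreated and 6.35, 5.47, 3.61 and 7.71 on the inflamed arrays, higher in pairs 1, 2 and 4 and lower in pair 3. Its difference was 2.87 ± 1.03 (SE; adjusted p = 0.139).

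Tspan5 was 8.26 ± 0.32 in untreated and 7.59 ± 0.41 in inflamed samples (SD, n = 4), lower in all 4 pairs (limma adjusted p = 0.345). Tspan14 was 8.40 ± 0.27 and 8.08 ± 0.35 (limma adjusted p = 0.670), and Tspan17 was 4.89 ± 1.92 and 5.04 ± 0.46 (limma adjusted p = 0.953). Adam10 itself differed by -0.47 ± 0.20 (SE) and did not pass (adjusted p = 0.210). Among the tested genes around ADAM10, Notch1 fell by 1.85 on the log2 scale (limma adjusted p = 0.0214), and Cdh5, the adherens junction cadherin that ADAM10 can cleave, differed by 0.50 ± 0.20 (SE; adjusted p = 0.181).

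The remaining tested members differed by -0.71 to 1.83 and did not pass. Tspan31, first found amplified in sarcoma, was higher in 3 of 4 pairs, at 9.08 ± 0.73 in untreated and 9.80 ± 0.47 in inflamed samples (SD, n = 4; limma adjusted p = 0.199). Tspan11 read 3.56, 1.51, 1.83 and 3.99 on the untreated and 4.57, 5.30, 3.26 and 5.10 on the inflamed arrays, higher in all 4 pairs but with overlapping ranges (limma adjusted p = 0.237). Tspan9, known from platelets, differed by -0.40 ± 0.32 (SE), and Tspan3, Tspan6 and Tspan8 by -0.18, -0.71 and -0.18. The sign of Tspan3 turned under median centring, and that of Tspan8 under all 3 other scalings.

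The uroplakins Upk1a and Upk1b, tetraspanins of the bladder lining, and Tspan1, Tspan10 and Cd37 were too dim to be tested. Upk1b was at or under the ceiling on all 8 arrays with its brightest probe set. Upk1a was above the ceiling on 1 untreated and 2 inflamed arrays, Tspan10 on 2 and 1, and Tspan1 on 1 and 1.

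**Figure D3:**
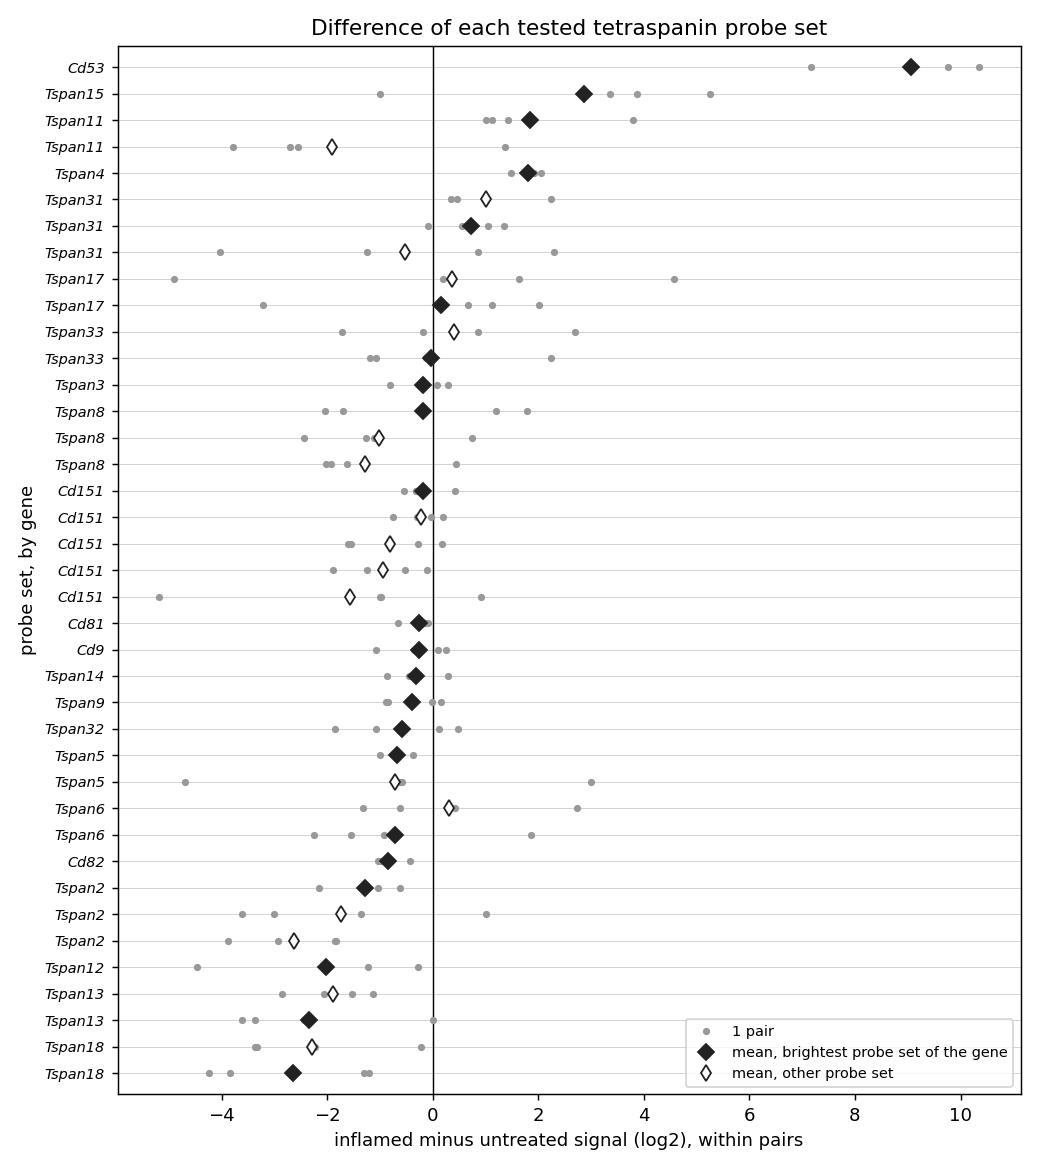
Inflamed minus untreated log2 signal (x axis) for each of the 39 tetraspanin probe sets that passed the filter (y axis, named by gene). Grey dots are single pairs, filled diamonds the mean of the brightest probe set of a gene and open diamonds the mean of its other probe sets. Both plotted probe sets of Tspan13 and of Tspan18, and all 3 of Tspan2, have means below 0, whereas those of Tspan11 lie at 1.83 and -1.92.

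Probe sets of the same gene mostly pointed the same way. With all probe sets tested separately, 1 of 38 tetraspanin probe sets other than that of Cd53 was higher and 4 were lower at an adjusted p under 0.05 in limma, against 5.72% of all 19626 probe sets called in either direction and 2.59% lower. The 4 belong to Tspan2, Tspan13 and Tspan18, and the 1 to Tspan4. Of 11 genes with several tested probe sets, 4 had differences of both signs, namely Tspan6, Tspan11, Tspan31 and Tspan33, and none of those probe sets passed. For Tspan11 the values were 1.83 ± 0.88 and -1.92 ± 1.03 (SE), and for Tspan31 they were 0.72, 1.00 and -0.53, the last from a probe set above the ceiling on 2 arrays of each group. All 5 tested probe sets of Cd151 were below 0, from -0.19 to -1.57.

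Several family members are neighbours on the chromosome. Cd151 and Tspan4 are separated by 1 protein-coding gene, Polr2l, and differed between groups by -0.19 ± 0.21 and 1.80 ± 0.33 (SE). Tspan18 and Cd82 are adjacent and differed by -2.65 ± 0.61 and -0.84 ± 0.44. Tspan32 lies next to Cd81, at -0.59 ± 0.75 and -0.26 ± 0.15, and Tspan11 next to Tspan9, at 1.83 ± 0.83 and -0.40 ± 0.32. The difference within each of these pairs of neighbours was not tested.

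The spread of the 21 tested genes was larger among inflamed than among untreated arrays for 11 of them (52.4%), against 56.4% of all genes. Their median SD was 0.49 in untreated and 0.60 in inflamed samples, against 0.72 and 0.82 over all genes. The spread within the inflamed group was widest for Tspan8, at 2.22, followed by Tspan18 at 1.88, and narrowest for Tspan4, at 0.27.

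Known partners of tetraspanins and genes for vesicle release were looked at as a list of 52 genes, of which 39 were tested, with 5 higher and 2 lower in limma, against 3.91% and 3.02% of all genes, and a median difference of 0.06. The list was written with earlier results of these data known. Its counts are therefore a description and cannot show that partners of tetraspanins respond more than other genes. The 7 tested integrin chains held 0 calls in limma, with 1 at an unadjusted p under 0.05, Itgb4, a laminin receptor chain, at -1.94 ± 0.65 (SE; adjusted p = 0.116). Itgb1, the shared beta chain, differed by -0.12 ± 0.26 and Itga6, a laminin receptor chain, by 0.06 ± 0.21. Itgb4 is also found in keratinocytes, and the part of the keratinocyte markers in its value was not tested. Of 9 surface partners tested, 4 rose and 1 fell.

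Hbegf, a growth factor whose precursor binds Cd9, rose by 2.31 ± 0.52 (SE; limma adjusted p = 0.0307). Icam1, a docking receptor for leukocytes, rose by 1.53 ± 0.19 and the hyaluronan receptor Cd44 by 3.47 ± 0.73 (SE; limma adjusted p = 0.00197 and 0.0221). Selp, the P-selectin that Cd63 helps to the endothelial surface, rose as well (adjusted p = 0.00173), above the ceiling on 2 untreated and 4 inflamed arrays. With an untreated mean of 2.17, under the filter on dim probe sets, Selp passed that filter only through its inflamed arrays. Igsf3, of the same immunoglobulin subfamily as the close tetraspanin partners Igsf8 and Ptgfrn, fell by 2.47 on the log2 scale (adjusted p = 0.0204). Igsf8 differed by 0.59 ± 0.69 and Ptgfrn by -0.83 ± 0.27 (adjusted p = 0.114), and neither passed. Of 8 tested genes for vesicle release, 1 rose, Sdcbp, the adaptor syntenin, by 0.63 ± 0.11 (adjusted p = 0.0114). The counts over these 39 genes were 3 higher in each fit without 1 pair, and 1 higher and 0 lower without the intensity trend.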

How the data were processed

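The authors deposited 1 intensity per probe set and array, MAS5 signals on a linear scale per the submitters' processing notes, with the scaling target not stated there. RNA was amplified into single-stranded cDNA, per the labels' protocols. Array medians of log2 signal spanned 0.47 and were left as deposited. They were 3.56 to 3.74 on untreated and 3.27 to 3.44 on inflamed arrays, so every inflamed median was below every untreated one. The filter kept probe sets averaging at least 3.30 (log2), the median of all, and the brightest of a gene stood for it. All 10843 genes were fitted with limma 3.58.1 in R 4.3.3 (eBayes with an intensity trend, pair as a fixed block, two-sided, Benjamini-Hochberg). The pairing comes from the design text, which says that pairs were sorted and extracted on 1 day; deviations correlated at 0.16, -0.0012, 0.08 and 0.03 within pairs. The SE is limma's moderated one. P-values refer to pools of mice. On simulated data of 10843 genes, 50 were changed at each size and 10643 were left unchanged. Of the changed genes, 14% of those changed by 1 on the log2 scale, 28% by 2, 70% by 3 and 90% by 4 were found. They were drawn from all genes, so these shares are not rates for the tetraspanins. A gene under the ceiling in 1 group has only a bound, its brighter mean against the mean ceiling. Planned for naming with values were all called members, Cd9, Cd37, Cd53, Cd81, Cd82 and Cd151, and members whose probe sets differ in sign. Also planned were called partners (up to 4 per list) and the markers Ptprc, Pecam1, Pdpn, Prox1 and Lyve1. Up to 4 genes per marker list were to be named by smallest p. This was not followed throughout, as some marker genes are named without values and some marker lists are left out. Other named genes were chosen after their values were seen. Protein features were not analysed here. Members and lists were chosen with earlier results of these data known.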

Additional observations from a re-analysis of the deposited data

Results flagged for a closer look

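Among 44 groups of 4 arrays examined (22 tetraspanin genes, both conditions), 1 held an array far from the rest, where chance gives about 1 in 20. For Tspan8, the untreated array of pair 2 read 0.70 on the log2 scale, under its background ceiling, while the other 3 untreated arrays lay between 5.38 and 6.35. The gap to the next array, divided by the range of the group, was barely past the critical value of Dixon's test for 4 samples.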

How the results depend on the processing

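The number of lower tetraspanin genes was 1 as reported. It was 0 with no replicate block (the fit without the pairing) and 0 without the intensity trend, and 2, Tspan13 and Tspan18, with the pair as a random block, under quantile normalization, with log2(signal + 16), with no filter or the filter at the 75th percentile, with all probe sets tested separately, and with signals floored at the ceiling, the last chosen after seeing the data. Without 1 pair it was 0 to 1, the 1 being Tspan13 without pair 2. The number of higher genes was 1, or 0 without the intensity trend, and 0 to 1 without 1 pair. Of the partner genes, 5 were higher, or 7 under median centring, 4 under quantile and 4 under cyclic loess normalization, 3 under the 75th percentile filter, 1 without the intensity trend and 3 without any 1 pair; 2 were lower, or 0 without the intensity trend and 0 to 1 without 1 pair. Leaving out the replicate block kept the call of Tspan4. Median centring gave 719 higher and 227 lower of all genes (76.0% higher) against 424 and 328 (56.4%), and the fit without the intensity trend gave 94 and 47. Without 1 pair, 208 to 306 of all genes were higher and 126 to 198 lower. Of the tetraspanin probe sets, 26 were above the ceiling on all 8 arrays, or 22 with the highest control as ceiling. The measured difference of Cd53, 9.07, was 5.80 with log2(signal + 16) and 7.01 with floored signals. The number of arrays limits the precision, and the cause of these shifts was not tested.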
